A study of Mus musculus with 2 samples.

Results

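Marginal zone B cells are a small B cell population that sits at the border of the splenic white pulp, and 748 of the 26249 cell barcodes in this spleen data set were assigned to them. They were chosen by a gate on unique molecular identifiers (UMIs, the tags that count single captured RNA molecules). A barcode had to have 200 to 6000 detected genes, under 10% mitochondrial UMIs, at least 2 UMIs of the B cell receptor chain gene Cd79a and no UMI of Cd3d or Cd3e. It also had to have at least 1 UMI of Cr2, UMIs of at least 2 of the 7 genes S1pr3, Myof, Cd1d1, Dtx1, Rundc3b, Ptpn14 and Trim7, and none of Fcer2a or Bhlhe41. The gate held 415 of 12958 barcodes of the CKO library and 333 of 13291 barcodes of the WT library. The values of these 13 genes therefore chose the cells and are given below as a description only.

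The study profiled immune cells of the spleen by droplet-based 3′ single-cell RNA sequencing in 1 library from RPA1 conditional knockout (CKO) mice and 1 library from wild-type (WT) mice, both of strain C57BL/6. RPA1 belongs to replication protein A, the complex that coats single-stranded DNA. The labels name neither the Cre driver nor the deleted exons, nor the age or the number of animals, and the series title places the study's question in T cells. Whether B cells of the CKO mice carried the deletion is therefore not known from the labels. Since each genotype had 1 library, differences between the libraries have no replicate check and none was tested. All intervals below are 95% intervals that cover counting error only.

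Marginal zone B cells arise from transitional B cells after NOTCH2 on the B cell meets its ligand DLL1 on stromal cells. They are held at the marginal sinus by integrins and by the sphingosine 1-phosphate receptors S1PR1 and S1PR3. They carry much complement receptor CD21 (encoded by Cr2) and the lipid-presenting molecule CD1d, little CD23 (encoded by Fcer2a) and little IgD. They are known for rapid IgM responses to blood-borne antigens without T cell help.

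NOTCH signals reach DNA through RBPJ, whose core recognition letters are TGGGAA. On the other strand these letters read TTCCCA. A pair of promoters is shown because they belong to a defining marker and to a NOTCH target gene measured here. Each is the stretch of 250 bases before the RefSeq transcription start on the strand of the gene, in build GRCm38.p6, with matches to these letters in capitals. Cr2 lies on the minus strand (chr1:195176720-195176969) and Hes5 on the plus strand (chr4:154960673-154960922).
Cr2: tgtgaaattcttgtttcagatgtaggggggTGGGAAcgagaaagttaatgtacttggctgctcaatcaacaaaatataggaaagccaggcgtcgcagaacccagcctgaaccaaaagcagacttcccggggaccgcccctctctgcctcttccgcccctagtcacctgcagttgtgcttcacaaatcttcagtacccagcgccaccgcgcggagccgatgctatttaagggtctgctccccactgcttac
Hes5: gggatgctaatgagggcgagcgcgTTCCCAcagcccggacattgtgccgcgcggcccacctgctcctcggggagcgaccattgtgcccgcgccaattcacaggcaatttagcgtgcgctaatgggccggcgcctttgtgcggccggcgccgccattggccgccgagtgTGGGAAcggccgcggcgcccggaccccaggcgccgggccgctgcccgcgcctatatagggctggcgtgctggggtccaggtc

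In windows of 300 bases (250 before and 50 after the start), 8394 of all 32841 promoters held these letters on either strand, or 25.6%. Counted by gene, 7650 of 27018 genes had such a window, or 28.3%. Among the 8 marginal zone markers of the gate, 7 had a window and 4 of them held the letters (Cr2, Rundc3b, S1pr3 and Trim7). Among the 20 other marginal zone markers listed, 15 had a window and 7 held them. Of the genes named below for their distance from the follicular level, 5 of 14 higher and 3 of 12 lower genes with a window held them, shares near that of all genes. Of the genes described below, Dtx1, Myof, Notch2, Asb2 and Fcrl5 had no match in their windows. A match of 6 letters describes the sequence only and is no measured binding site.

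The libraries held 76910129 UMIs in CKO and 84240951 UMIs in WT, and 12610 and 12679 barcodes of CKO and WT passed the limits on genes and mitochondrial share. Both libraries shared 36 barcode sequences, carried by 1 marginal zone B cell of CKO and 2 of WT. Members had a median of 7373 UMIs in CKO and 7673 UMIs in WT. Follicular B cells, the main recirculating B cells, had medians of 4060 UMIs in CKO and 4313.5 UMIs in WT. They were taken here as B cells with a Fcer2a UMI, no Bhlhe41 UMI and no UMI of the 7 genes (3211 in CKO and 2344 in WT). Depth thus moves with the comparison of these sets, and its part was not tested beyond the values from thinned cells below. T cell markers summed to 50.7 and 67.9 CPM (counts per 1e+06 UMIs of the summed cells) in CKO and WT members over 14 genes, against 7117 and 8071 CPM in gated T cells of CKO and WT. The 10 NK cell markers summed to 166 CPM in CKO and 181 CPM in WT members, and the 13 monocyte and macrophage markers to 494 CPM in CKO and 514 CPM in WT members, with C1qb and Fcgr1 at 0 in both. The part of such cells in the results was not tested.

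The gate narrowed step by step in the same way in both libraries. Of 9834 CKO and 7176 WT B cells, 1708 and 1346 had UMIs of at least 2 of the 7 genes, 1346 and 1036 of these had a Cr2 UMI, 550 and 429 of those had no Fcer2a UMI, and 415 and 333 had no Bhlhe41 UMI either. Of the barcodes that missed a single step, those with a Fcer2a UMI were the most numerous. They numbered 666 in CKO and 541 in WT, and 164 of the CKO and 134 of the WT ones had exactly 1. Just outside the other limits stood 259 CKO and 218 WT barcodes with 1 of the 7 genes, 135 and 96 with a Bhlhe41 UMI, and 98 and 73 without a Cr2 UMI. Just inside stood 142 CKO and 111 WT members with exactly 2 of the 7 genes. In 61 of these CKO members and 50 of these WT members the pair was Dtx1 with Trim7.

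Marginal zone B cells made up 415 of 9834 B cells in CKO, or 4.22% (exact interval 3.83 to 4.64), against 333 of 7176 in WT, or 4.64% (4.17 to 5.15). The ratio of CKO over WT was 0.909 (0.785 to 1.05), so the shares did not differ beyond counting error. Among all kept cells the order was the other way, at 3.29% in CKO against 2.63% in WT, a ratio of 1.25 (1.08 to 1.45). The CKO library held 724 gated T cells where the WT library held 3381. Among kept cells other than T cells the share was 3.49% in CKO and 3.58% in WT, a ratio of 0.975 (0.842 to 1.13). After each cell was thinned to 2000 UMIs before the gate, 236 CKO and 188 WT members were left, or 2.47% and 2.63% of the B cells of CKO and WT. With cells that had a Fcer2a UMI counted as well, the shares were 11.0% in CKO and 12.2% in WT, a ratio of 0.903 (0.825 to 0.988).

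The given markers of the population were all present. Dtx1, a ubiquitin ligase induced by NOTCH, was detected in 90.4% of CKO and 86.2% of WT members. S1pr3, the sphingosine 1-phosphate receptor tied to marginal zone position, was detected in 45.1% of CKO and 36.0% of WT members. Cd1d1 was detected in 48.9% of CKO and 52.9% of WT members, and Myof, a membrane repair protein of the ferlin family, in 40.7% of CKO and 49.2% of WT members. Of the other gate genes, Trim7 had a UMI in 75.7% of CKO members and 76.3% of WT members, while Rundc3b had one in 2.89% of CKO members and 5.41% of WT members. All of these shares are raised by the gate itself.

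Genes that the gate did not use also differed between the sets. Of the 20 other marginal zone markers, 17 were measured, meaning that a set held 20 CPM or more and no fewer than 20 counts. Of these, 14 were at least 1.5-fold higher in marginal zone than in follicular B cells of both libraries, none lower. The background for higher calls was 339 of 6092 genes, or 5.56%. Only 10 of the 17 were measured in follicular B cells. The others passed the filter through the marginal zone sums alone, which favours a higher call. The list was also chosen with earlier results of these data known, so the count is a description only. The median log2 ratio of the 17 was 2.38 in CKO and 2.42 in WT, against -0.08 in CKO and -0.04 in WT over all genes measured. Of the 13 follicular markers measured, 9 were at least 1.5-fold lower in both libraries and 1, Zbtb20, was higher. The background for lower calls was 368 of 6092 genes, or 6.04%. CPM were also computed over genes other than immunoglobulin, ribosomal protein and mitochondrial genes. The split then became 571 higher and 328 lower of 7470 genes.

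Fcrl5, an Fc receptor-like protein of innate-like B cells, was among the markers of widest contrast. It had 106 CPM in CKO and 102 CPM in WT marginal zone B cells, against 4.03 CPM in CKO and 3.42 CPM in WT follicular B cells. The ratio of marginal zone over follicular was 26.3 (19.9 to 35.2) in CKO and 29.7 (21.1 to 42.8) in WT. Fcrl5 was detected in 48.0% of CKO and 46.2% of WT members, in 1.40% and 1.45% of follicular B cells of CKO and WT, and in 0 of 724 CKO and 4 of 3381 WT T cells, whose median depths were 6143 and 6829 UMIs in CKO and WT. With every cell thinned to 2000 UMIs it was detected in 18.1% of CKO and 15.02% of WT members against 0.690% of CKO and 0.556% of WT follicular B cells. The gate applied to thinned cells gave ratios of 16.9 in CKO and 19.3 in WT.

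Several further markers followed. Cd9, a tetraspanin, had 107 CPM in CKO and 94.3 CPM in WT members, against 8.96 CPM in CKO and 8.56 CPM in WT follicular B cells. Cd9 thus differed far more between the cell sets than between the libraries. Plac8 had 1642 CPM in CKO and 1539 CPM in WT members, against 463 CPM in CKO and 431 CPM in WT follicular B cells. Cd36, a scavenger receptor, had 102 and 103 CPM in CKO and WT members, against 17.3 and 13.3 CPM in CKO and WT follicular B cells. Dph5, an enzyme of diphthamide synthesis, had 295 CPM in CKO and 266 CPM in WT members, against 45.2 CPM in CKO and 39.3 CPM in WT follicular B cells. In each of these genes both libraries gave a similar pair of levels. Mzb1, an endoplasmic reticulum chaperone of IgM assembly, stood at 731 CPM in CKO and 810.0 CPM in WT members, against 312 CPM in CKO and 326 CPM in WT follicular B cells. The listed markers Notch2, Cd22 and Cd38 did not pass 1.5-fold in both libraries.

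The 15 genes that lay farthest above the follicular level by the nearer bound of their intervals were Tspan15, Tbc1d9, Ms4a7, Sorbs2, Asb2, Nebl, Fcrl5, Rap1gap, Rgs10, AW011738, Zc3h12c, Nrp2, Ackr2, Atxn1 and Ffar2. Asb2, a ubiquitin ligase subunit, had 36.9 CPM in CKO and 28.8 CPM in WT members, against 1 and 5 counts in all follicular B cells of CKO and WT, so its ratios of 540 in CKO (lower bound 95.1) and 63.8 in WT (26.3 to 202) are loosely bounded. Tspan15 had no count in WT follicular B cells and 18.4 CPM in WT members. Set against a floor of 3 counts it was at least 68.0-fold higher in WT members, and the lower bound of its exact interval was 53.4-fold. Nebl, a member of the nebulin family that binds actin, had 54.6 CPM in CKO and 59.96 CPM in WT members, against 0.889 CPM in CKO and 1.53 CPM in WT follicular B cells. These genes were close to absent from follicular B cells. Rgs10, a regulator of G protein signalling, had 152 CPM in CKO and 145 CPM in WT members, against 7.25 CPM in CKO and 6.31 CPM in WT follicular B cells. Ffar2, a receptor for short-chain fatty acids, had 52.8 CPM in CKO and 56.2 CPM in WT members, against 0.547 CPM in CKO and 2.88 CPM in WT follicular B cells. Ackr2, a chemokine-scavenging receptor, had 24.3 CPM in CKO and 22.5 CPM in WT members, against 0.889 CPM in CKO and 0.270 CPM in WT follicular B cells. All 15 were called higher in both libraries, which the way of choosing them fixes.

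The 15 genes farthest below the follicular level included Rflnb, Car2, Pde2a, Klf2, Gmfg, Cd55, Hvcn1, Selenop, Bach2, Gadd45g, Arhgef3, Neurl3, Slamf1 and Zfp318. Klf2, a transcription factor that keeps lymphocytes quiescent and recirculating, had 179 CPM in CKO and 209.7 CPM in WT members, against 784 CPM in CKO and 845 CPM in WT follicular B cells. Cd55, a decay-accelerating complement regulator, had 139 CPM in CKO and 179 CPM in WT members, against 673 CPM in CKO and 692 CPM in WT follicular B cells. Both of these genes were thus low in members of both libraries. Bach2, a repressor of plasma cell fate, had 33.9 CPM in CKO and 55.8 CPM in WT members, against 194 CPM in CKO and 199 CPM in WT follicular B cells. Hvcn1, a proton channel, had 78.3 CPM in CKO and 81.8 CPM in WT members, against 312 CPM in CKO and 307 CPM in WT follicular B cells. In all of these genes the members of both libraries lay far below both follicular sets.

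The barcodes kept out only by a Fcer2a UMI lay between the marginal zone and follicular sets. This held in both libraries for all 15 genes above and for 14 of the 15 genes below, with Car2 as the exception. Since these genes were chosen for the widest distance between the outer sets, another set of B cells would tend to lie between them, and the count is a description only. Fcrl5 had 43.0 CPM in CKO and 37.7 CPM in WT barcodes of that kind, and Klf2 had 413 CPM in CKO and 432 CPM in WT ones. Their median depths, 7486.5 UMIs in CKO and 7011 UMIs in WT, were close to those of the members.

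**Figure D1:**
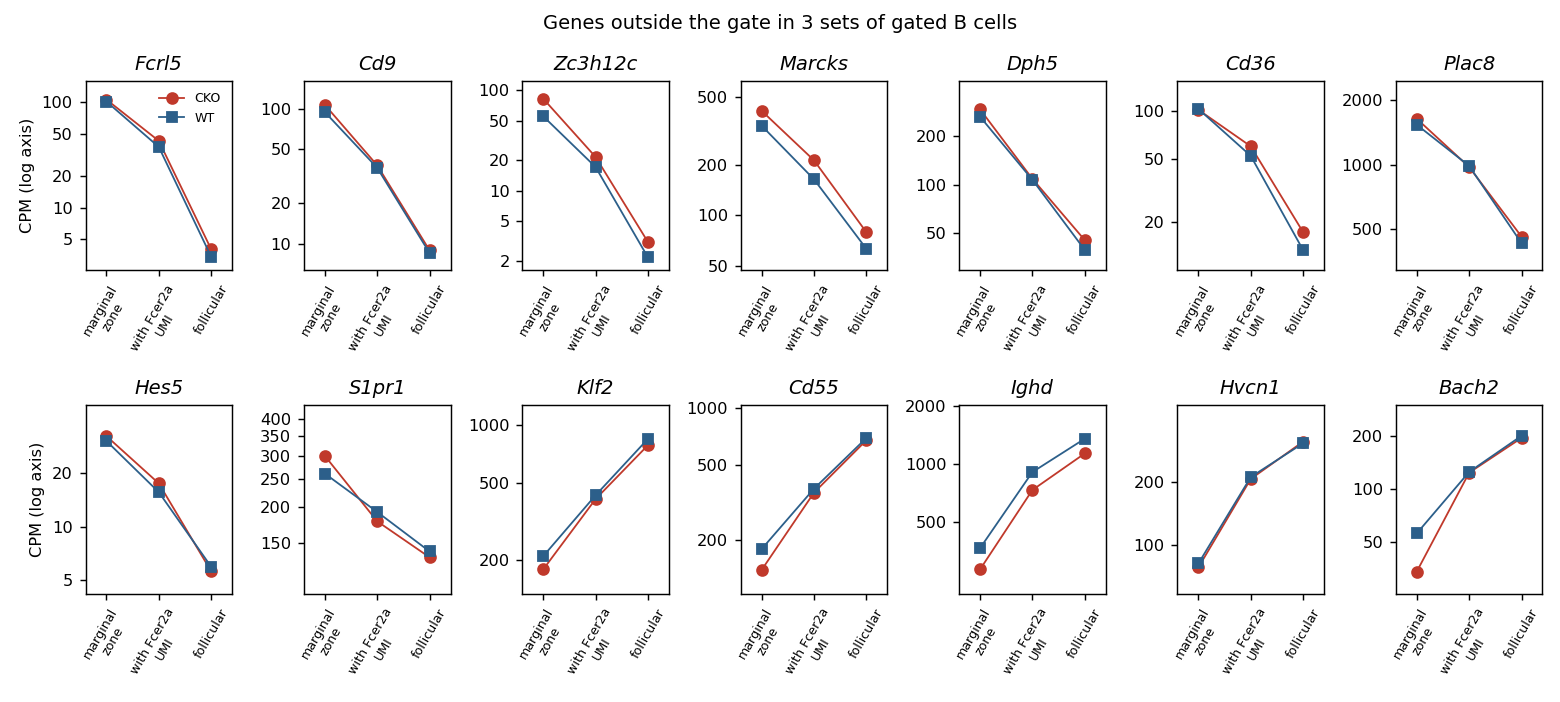
Levels in CPM (log axes that differ between panels and do not start at 0) of 14 genes that the gate did not use, in marginal zone B cells, barcodes kept out only by a Fcer2a UMI and follicular B cells, with CKO as red circles and WT as blue squares. The set with a Fcer2a UMI lies between the others in every panel, for example Fcrl5 at 106, 43.0 and 4.03 CPM in CKO.

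Per cell the sets overlapped. UMIs of the 20 other marginal zone markers and of the follicular markers except Fcer2a were counted in cells thinned to 2000 UMIs. More marginal zone than follicular marker UMIs were found in 80.0% of 414 CKO and 71.8% of 333 WT members. The same was true of 33.8% of CKO and 31.1% of WT barcodes kept out by a Fcer2a UMI, and of 8.12% of CKO and 6.08% of WT follicular B cells. Members had a median of 10 such marginal zone marker UMIs in CKO and 9 in WT, and a median of 4 follicular marker UMIs in both libraries. Some members of either library thus carried a follicular-leaning set of transcripts.

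**Figure D2:**
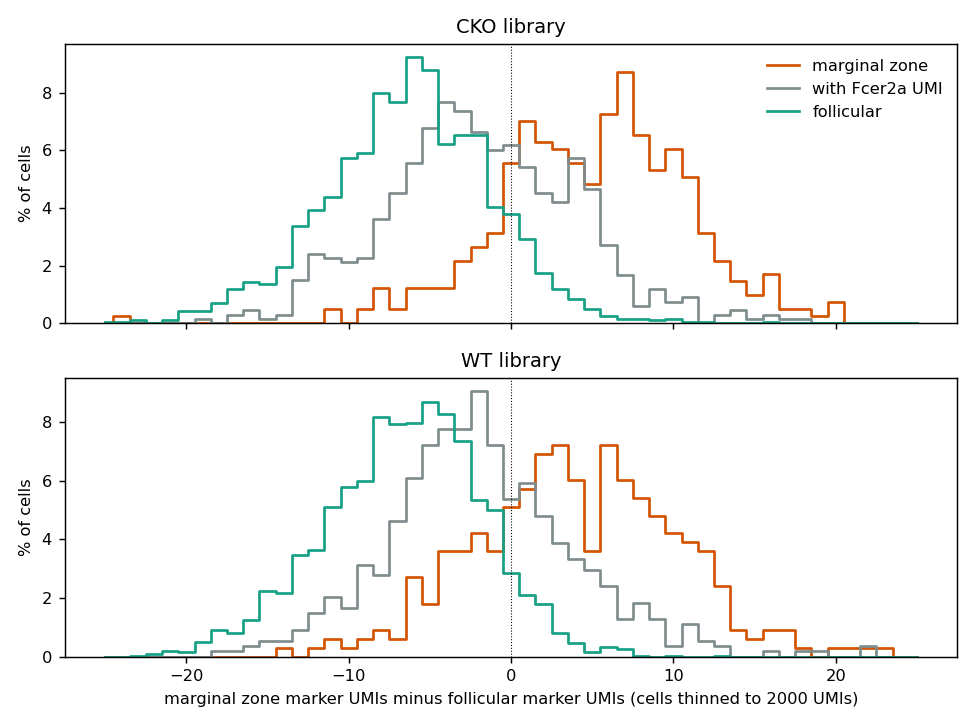
Distribution over cells (percent of each set) of marginal zone marker UMIs minus follicular marker UMIs after thinning to 2000 UMIs, for the CKO library above and the WT library below. Marginal zone B cells (orange) lie to the right, follicular B cells (green) to the left and barcodes with a Fcer2a UMI (grey) between them, with overlap of all 3 sets.

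Levels in the members moved with the number of gate genes detected. These genes also chose the cells, and whether the steps reflect a gradient or a mixture of cells was not tested. Members were split by how many of the 7 genes they held, namely 2 (142 in CKO, 111 in WT), 3 (104 and 82 in CKO and WT), 4 (83 and 67) and 5 to 7 (86 and 73). Over these steps Fcrl5 had 67.0, 93.0, 128 and 153 CPM in CKO and 55.8, 93.6, 126 and 157 CPM in WT. Klf2 went the other way, with 257, 162, 140 and 129 CPM in CKO and 335, 198, 144 and 93.1 CPM in WT. Ighd, the IgD heavy chain gene, had 477, 246, 213 and 139 CPM in CKO and 551, 427, 185 and 188 CPM in WT. S1pr1 had 211, 261, 409 and 366 CPM in CKO and 131, 237, 316 and 429 CPM in WT. Members with more gate genes thus held more Fcrl5 and less Klf2 and Ighd in both libraries, apart from small steps back of Ighd in WT and S1pr1 in CKO at the top. Median depth also grew over the same steps, with 6646.5, 7231.5, 7518 and 8764.5 UMIs in CKO and 6464, 7670.5, 7939 and 8574 UMIs in WT. In cells thinned to one depth, more marginal zone than follicular marker UMIs were found in 59.6%, 87.5%, 92.8% and 91.9% of CKO members and in 47.7%, 72.0%, 92.5% and 89.0% of WT members over these steps. The barcodes just outside, with 1 of the 7 genes, stood at 35.8 CPM of Fcrl5 in CKO and 29.4 CPM in WT. The proliferation marker Mki67 was concentrated at the low end, with 170, 157, 12.1 and 12.6 CPM in CKO and 160, 11.3, 7.18 and 1.53 CPM in WT.

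**Figure D3:**
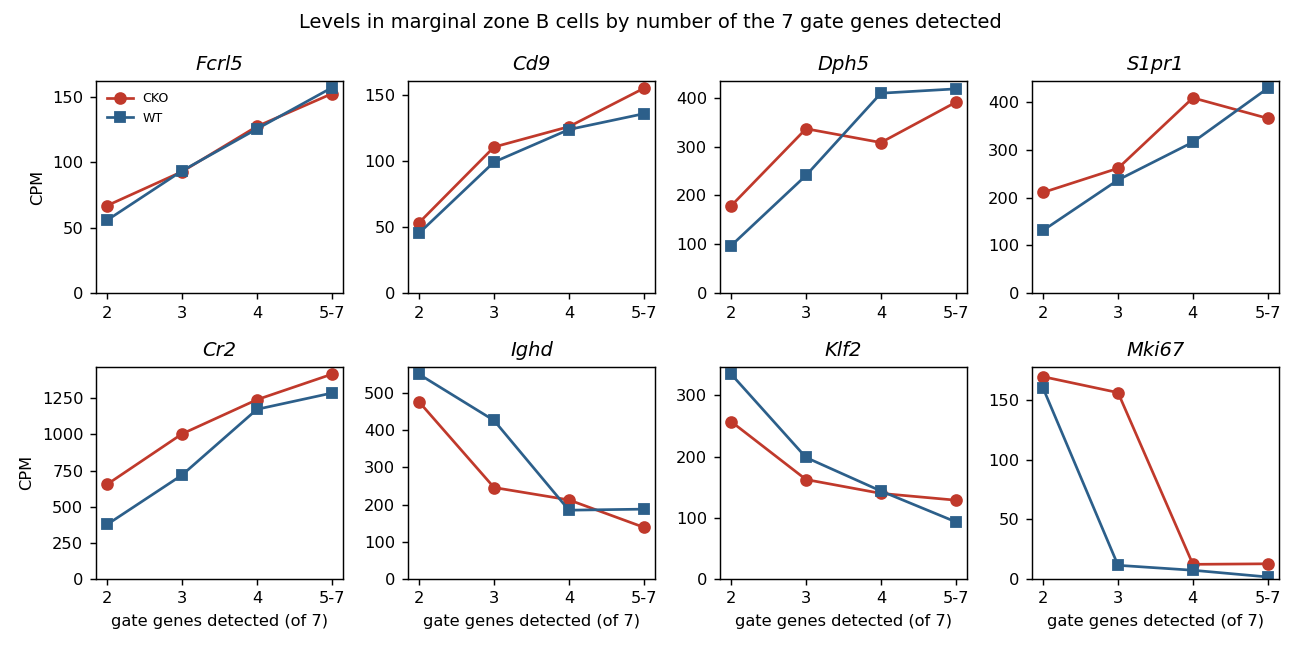
Levels in CPM (axes start at 0) of 8 genes in marginal zone B cells holding 2, 3, 4 or 5 to 7 of the 7 gate genes, with CKO as red circles and WT as blue squares. Fcrl5, Cd9 and the gate gene Cr2 are higher and Klf2 lower where more gate genes were detected, and Mki67 lies almost wholly in members with 2 or 3 of them in CKO and with 2 in WT.

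Of the NOTCH pathway genes, 20 of 46 were measured, and the target genes Hes1 and Hes5 were at least 1.5-fold higher in marginal zone than in follicular B cells of both libraries. Maml3, a coactivator gene, was lower. Among all genes 5.56% were higher and 6.04% lower, so these counts of 2 and 1 lie near the background. Hes1, a transcriptional repressor, had 106 CPM in CKO and 78.3 CPM in WT members, against 40.5 CPM in CKO and 28.3 CPM in WT follicular B cells. Hes5, of the same family, had 32.1 CPM in CKO and 30.2 CPM in WT members, against 5.61 CPM in CKO and 5.95 CPM in WT follicular B cells. Both target genes were thus higher in members of either library. Hes5 passed the filter at 20 CPM through the marginal zone sums alone, which favours a higher call. The receptor gene Notch2 had nearly the same level in both sets, with 70.2 CPM in CKO and 66.9 CPM in WT members, against 61.9 CPM in CKO and 60.7 CPM in WT follicular B cells. Rbpj had 32.7 CPM in CKO and 33.3 CPM in WT members, against 24.9 CPM in CKO and 24.4 CPM in WT follicular B cells. The median log2 ratio of the measured pathway genes was 0.06 in both libraries.

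Of 28 positioning genes measured against follicular B cells, 2 were higher (S1pr1 and Itgb1), 10 were lower and the rest did not pass 1.5-fold in both libraries. Over all genes 5.56% were higher and 6.04% lower. The list had a median log2 ratio of -0.37 in CKO and -0.36 in WT. S1pr1, the receptor for exit toward blood and for marginal zone retention, had 299.6 CPM in CKO and 260.3 CPM in WT members, against 134 CPM in CKO and 140.4 CPM in WT follicular B cells. Itgb1, the integrin beta 1 chain, had 57.0 CPM in CKO and 53.03 CPM in WT members, against 32.1 CPM in CKO and 27.3 CPM in WT follicular B cells. Both of these were higher in members, while the next pair was lower. S1pr4, a further receptor of the family, had 24.3 CPM in CKO and 30.2 CPM in WT members, against 83.2 CPM in CKO and 78.0 CPM in WT follicular B cells. Ccr7, the receptor for T zone chemokines, had 42.3 CPM in CKO and 45.4 CPM in WT members, against 119 CPM in CKO and 115 CPM in WT follicular B cells. Cxcr5, the receptor for the follicle chemokine, was measured and did not pass 1.5-fold, with 117 CPM in CKO and 94.3 CPM in WT members against 97.0 CPM in CKO and 92.5 CPM in WT follicular B cells.

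Among innate sensing genes, 2 of 16 measured Toll-like receptor genes were higher in both libraries, Tlr7 and Ly96, and none was lower, where 5.56% of all genes were higher and 6.04% lower. Tlr7, a sensor of single-stranded RNA, had 31.8 CPM in CKO and 27.4 CPM in WT members, against 15.1 CPM in CKO and 14.1 CPM in WT follicular B cells. Members of both libraries lay above both follicular sets for this sensor. Tlr7 passed the filter at 20 CPM through the marginal zone sums alone, which favours a higher call. Of the 6 measured complement genes, 2 were higher (Cfp and Cd81) and 2 lower (Cd55 and Ifitm3). Cfp, the positive regulator properdin, had 78.9 CPM in CKO and 57.2 CPM in WT members, against 23.4 CPM in CKO and 16.3 CPM in WT follicular B cells. Cd81, a tetraspanin that associates with CD21 on B cells, had 281 CPM in CKO and 247 CPM in WT members, against 154 CPM in CKO and 149 CPM in WT follicular B cells. Of 7 measured immunoglobulin constant genes, Ighd was the 1 lower gene, with 285 CPM in CKO and 367 CPM in WT members against 1137 CPM in CKO and 1355 CPM in WT follicular B cells. Jchain was the 1 higher gene and is described with its single cells below. Ribosomal protein genes took 31.4% of UMIs in CKO and 31.3% in WT members, against 27.0% in CKO and 28.2% in WT follicular B cells.

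Between the genotypes, Rpa1 came first as the targeted gene. It had 67 counts or 20.1 CPM (15.6 to 25.5) in CKO members, against 89 counts or 30.8 CPM (24.8 to 38.0) in WT members, a ratio of 0.652 (0.468 to 0.905). In follicular B cells it had 37.5 CPM in CKO and 36.0 CPM in WT, a ratio of 1.04 (0.912 to 1.19). The lower level in CKO members did not reach 1.5-fold in several other selections of the members. The ratio was 0.833 with at least 3 of the 7 genes, 0.825 under a stricter cell filter, 0.745 without cycling cells, 0.727 without WT cells rich in Jchain, 0.731 without the single cell with most Rpa1 UMIs in each library, and 0.947 under the gate on thinned cells. In addition, 3′ tags cannot check a deletion that lies elsewhere in the gene. Of 9 measured genes of the RPA and ATR checkpoint list, Rpa1 was the 1 called lower and none was higher. Over all genes 1.28% were lower and 1.54% higher. The median log2 ratio of the 9 was -0.44, against 0.02 over all genes measured. In follicular B cells the list had a median of 0.01 over 11 measured genes, none of them called. Genes near 20 CPM can be measured through WT members alone, as Rpa2 was, and the part of this in the median was not tested. Rpa2, the second subunit, had 17.1 CPM in CKO and 24.3 CPM in WT members (0.705, 0.488 to 1.01), and Rpa3, the smallest subunit, 43.2 CPM in CKO and 51.3 CPM in WT members (0.843, 0.665 to 1.07).

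Across all 5789 genes measured in the members, 89 (1.54%) were at least 1.5-fold higher and 74 (1.28%) at least 1.5-fold lower in CKO than in WT members. In the deeper sums of follicular B cells the counts were 20 (0.356%) higher and 16 (0.285%) lower of 5623 genes. The members had 3331606 summed UMIs in CKO and 2885093 in WT, against 14625757 in CKO and 11096762 in WT follicular B cells, and the part of this depth in the counts was not tested. Of the 89 higher genes 44 were also measured in follicular B cells, and 6 of them were past 1.5-fold the same way there. These were Aldh7a1, Gm47283, Hist1h1b, Hist1h2ae, Hist1h2ap and Mbnl1. Of the 74 lower genes 50 were measured there, and 5 were past 1.5-fold the same way, namely Cxcr4, Eif2s3y, Gm42031, Jchain and Tsc22d3. None went past it in the opposite way. Of these, Gm47283, Gm42031, Eif2s3y and Mbnl1 are named only because of these counts, after their values were seen.

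**Figure D4:**
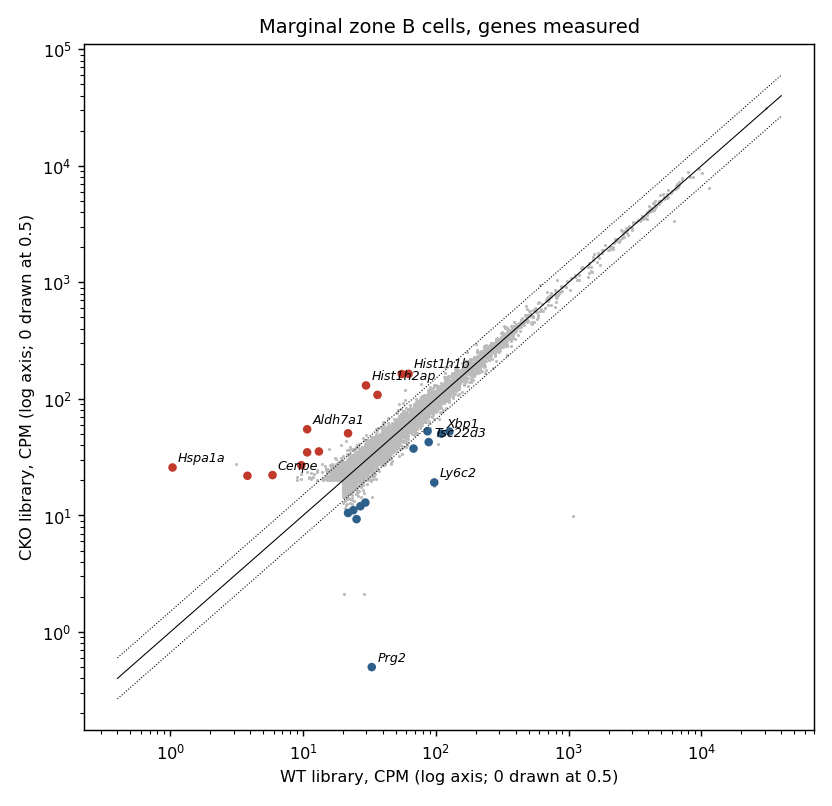
CPM of each measured gene in marginal zone B cells of the CKO library (vertical, log axis) against the WT library (horizontal, log axis), with values of 0 drawn at 0.5, lines for equality (solid) and 1.5-fold (dotted), the 12 named higher genes in red and the 12 named lower genes in blue. Most genes lie within the dotted lines, and Prg2, with no count in CKO and 32.9 CPM in WT, lies farthest below among the named genes.

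Most of the listed marginal zone markers did not pass 1.5-fold between the genotypes. The 17 other markers measured had a median log2 ratio of 0.15, against 0.02 over all genes measured. Of the 17 other marginal zone markers measured, 1 was at least 1.5-fold higher in CKO members, Sema7a, with 41.1 CPM in CKO and 26.3 CPM in WT members (1.56, 1.17 to 2.09), and none was lower. Over all genes 1.54% were higher and 1.28% lower, the background for each count of this paragraph. Fcrl5 had a ratio of 1.04 (0.891 to 1.22) and Cd9 of 1.13 (0.962 to 1.33). Among the gate genes, given as a description, Cr2 had 1041 CPM in CKO and 821 CPM in WT members, S1pr3 104 CPM in CKO and 78.0 CPM in WT members, and Myof 83.1 CPM in CKO and 110.2 CPM in WT members. Of 20 NOTCH pathway genes 1 was higher, Pofut1, an enzyme that fucosylates NOTCH, with 23.7 CPM in CKO and 13.9 CPM in WT members (1.71, 1.16 to 2.57), and none was lower. Pofut1 passed the filter at 20 CPM through CKO members alone. Hes1 had 1.35 (1.14 to 1.60) in members and 1.43 (1.25 to 1.65) in follicular B cells. None of the 15 Toll-like receptor genes, 6 Fc receptor genes, 13 follicular markers or 35 B cell receptor signalling genes measured was past 1.5-fold.

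Of 29 positioning genes none was higher and 2 were lower in CKO members, the integrin beta 7 gene Itgb7 and the chemokine receptor gene Cxcr4. Over all genes 1.54% were higher and 1.28% lower. Both Itgb7 and Cxcr4 passed the filter at 20 CPM through WT members alone, where they were higher. Itgb7 had 12.01 CPM in CKO and 27.0 CPM in WT members (0.444, 0.295 to 0.658), and 52.2 CPM in CKO and 62.9 CPM in WT follicular B cells (0.829). For Itgb7 the gap between the libraries was wider in members than in follicular B cells. Cxcr4 had 13.2 CPM in CKO and 24.3 CPM in WT members (0.544, 0.365 to 0.805), and 48.5 CPM in CKO and 93.3 CPM in WT follicular B cells (0.520, 0.472 to 0.572). Of 26 measured type I interferon response genes, Ifit3 and Rtp4 were higher and none lower, with a median log2 ratio of 0.22. Ifit3 had 40.5 CPM in CKO and 19.4 CPM in WT members (2.09, 1.52 to 2.90). It passed the filter at 20 CPM through CKO members alone, which favours a higher call.

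Of the 12 genes named as highest in CKO members, 6 encode replication-dependent histones (Hist1h2ap, Hist1h2an, Hist1h2ae, Hist1h3c, Hist1h1b and Hist1h2ab), which are made in S phase. A further 4 act in mitosis, namely Cenpe and Cenpf at the kinetochore, Prc1 at the midzone and Ube2c in the anaphase-promoting complex pathway. The last pair were Aldh7a1 and Hspa1a. Hist1h2ap had 131 CPM in CKO and 29.8 CPM in WT members (4.38, 3.47 to 5.59), and 27.8 CPM in CKO and 15.1 CPM in WT follicular B cells (1.83). The gap was larger in members than in follicular B cells for this histone gene, a difference that was not tested. Hist1h1b, which encodes a linker histone, had 164 CPM in CKO and 62.4 CPM in WT members (2.63, 2.22 to 3.13). Cenpf had 34.8 CPM in CKO and 10.7 CPM in WT members (3.24, 2.16 to 4.98). Of 10 measured genes of the cycling list, all 10 were at least 1.5-fold higher in marginal zone than in follicular B cells of both libraries. None of the 10 was measured in follicular B cells, so all passed the filter through the marginal zone sums alone. That favours a higher call, and the count is a description only. Over all genes 5.56% were higher. Between the genotypes, 9 of the 10 were higher in CKO members and none lower, with a median log2 ratio of 0.93. Cenpe, Cenpf and Ube2c, for example, passed the filter at 20 CPM through CKO members alone. That favours a higher call, so this count too is a description only. Over all genes 1.54% were higher and 1.28% lower in CKO members.

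Cycling cells held part of these counts. Defined by UMIs of at least 3 cycling genes, they numbered 21 of 415 CKO members, or 5.06% (3.16 to 7.63), against 10 of 333 WT members, or 3.003% (1.45 to 5.45). The ratio of 1.69 (0.760 to 4.01) did not exceed counting error. Among follicular B cells the numbers were 9 of 3211 in CKO and 4 of 2344 in WT. In cells thinned to 2000 UMIs they were 12 of 414 CKO and 5 of 333 WT members, against 5 of 3188 CKO and 2 of 2337 WT follicular B cells. Cycling members numbered 19 in CKO and 9 in WT among those with 2 or 3 of the 7 genes, and 2 in CKO and 1 in WT among those with more. They held 69.1% of the clustered histone UMIs of CKO members and 44.3% of those of WT members. Without the cycling cells Hist1h2ae stood at 0.989, Hist1h1b at 0.873 and Cenpe at 0.970 of the WT level, while Hist1h2ap stayed at 2.58-fold. Under the gate on thinned cells Mki67 was 3.16-fold higher in members than in follicular B cells in CKO, and in WT the members had 0.296 of the follicular level.

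Hspa1a, a heat-inducible chaperone, had 86 counts or 25.8 CPM in CKO members and 3 counts or 1.04 CPM in WT members (24.8, 8.22 to 123), but a single CKO cell held 45 of the 86 counts. Aldh7a1, an enzyme of lysine breakdown, was spread over cells. It had 54.9 CPM in CKO and 10.7 CPM in WT members (5.11, 3.48 to 7.74), and 142 CPM in CKO and 11.6 CPM in WT follicular B cells (12.2, 10.2 to 14.7). It was detected in 124 of 415 CKO and 24 of 333 WT members. Its CKO level was thus lower in marginal zone than in follicular B cells, at 0.388-fold (0.331 to 0.451), where the WT levels of both sets lay close together, at 0.924-fold (0.603 to 1.38). Mbnl1, a splicing regulator, had 949 CPM in CKO and 608 CPM in WT members (1.56, 1.47 to 1.66), and 829 CPM in CKO and 538 CPM in WT follicular B cells.

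The 12 genes named as lowest in CKO members fell into a group carried by single WT cells and a group spread over cells. Prg2, the eosinophil granule major basic protein, had no count in CKO members and 95 in WT members, of which 93 lay in 1 cell. Ly6c2 had 64 counts in CKO and 281 in WT members, 44 and 243 of them in 1 cell each. Xbp1, the transcription factor of the secretory programme, had 50.4 CPM in CKO and 109.9 CPM in WT members, and Txndc5, an endoplasmic reticulum disulfide isomerase, had 52.5 CPM in CKO and 127 CPM in WT members. A single WT cell of 36182 UMIs held 159 of the 317 Xbp1 counts and 175 of the 365 Txndc5 counts of WT members, together with 1819 Jchain UMIs. At least 20 UMIs of Jchain, the joining chain of secreted IgM, were found in 0 of 415 CKO members, which allows a share of up to 0.723% by a floor of 3 counts and 0.885% by the exact interval, and in 3 of 333 WT members (0.901%). The cell with 93 Prg2 counts was among these 3, with 1222 Jchain UMIs and 6 UMIs each of the plasma cell markers Sdc1 and Prdm1. The cell of 36182 UMIs held 4 Sdc1 and 2 Prdm1 UMIs. The remaining cell, with 52 Jchain UMIs, held no UMI of either. Without these 3 cells Ly6c2 was 1.49-fold higher in CKO members. Xbp1 (1.02), Eaf2 (1.03), Txndc5 (0.886), Ighm (1.03) and Igkc (0.983) were then near equal. That step takes out WT cells only, and the CKO cell with 44 Ly6c2 counts stays in. Without the cell with most UMIs of the gene in each library, Ly6c2 was still lower in CKO members (0.456), as were Xbp1 (0.893), Eaf2 (0.825) and Txndc5 (0.779). Ly6c2, Xbp1 and Txndc5 were also higher in CKO members under the gate on thinned cells (4.29, 1.08 and 1.30). Jchain itself had 9.91 CPM in CKO and 1076 CPM in WT members, and was 2.51-fold higher in CKO without the 3 cells. Those cells were chosen by their Jchain UMIs and all came from WT, so this ratio is a description only. Of the 33 Jchain counts of CKO members, 14 lay in the top cell and 11 in the next. Jchain was detected in 2.17% of CKO and 3.90% of WT members, and in 0.414% of CKO and 2.19% of WT T cells, which should lack it. Plasma cell markers summed to 165 CPM in CKO and 1325 CPM in WT members over 10 genes. Jchain alone gave 1076 CPM of the WT sum, with 1819 of its 3104 counts in the top cell and 1222 in the next. The median log2 ratio of the measured plasma cell markers was -1.12, and 0.22 without the 3 cells.

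The group spread over cells held Lpcat2, Tsc22d3, Itgb7, Mrto4, Ccdc171, Derl3 and Lars, of which Derl3 turned to higher in CKO members (1.25) with at least 3 of the 7 genes and (1.17) under the gate on thinned cells. Lpcat2, a lysophospholipid acyltransferase, had 9.30 CPM in CKO and 25.3 CPM in WT members (0.368, 0.233 to 0.567), and 3.62 CPM in CKO and 14.1 CPM in WT follicular B cells (0.256, 0.184 to 0.352). Tsc22d3, a glucocorticoid-induced regulator, had 42.6 CPM in CKO and 88.4 CPM in WT members (0.482, 0.390 to 0.594), and 153 CPM in CKO and 255 CPM in WT follicular B cells (0.600). Both genes were lower in CKO in marginal zone and follicular B cells alike. Ccdc171 had 11.1 CPM in CKO and 23.9 CPM in WT members (0.464, 0.303 to 0.702), and 9.44 CPM in CKO and 16.5 CPM in WT follicular B cells (0.572). Lars, the cytosolic leucyl-tRNA synthetase, had 52.8 CPM in CKO and 86.7 CPM in WT members (0.610, 0.4998 to 0.742), and 58.0 CPM in CKO and 65.6 CPM in WT follicular B cells (0.884). Of 39 measured B cell transcription factors, 2 were called lower in CKO members, Bach2 and Xbp1, and none higher, where 1.28% of all genes were lower and 1.54% higher. Bach2 had a ratio of 0.608 (0.474 to 0.778) in members and 0.972 (0.920 to 1.03) in follicular B cells. Whether ratios in members and follicular B cells differ was not tested.

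**Figure D5:**
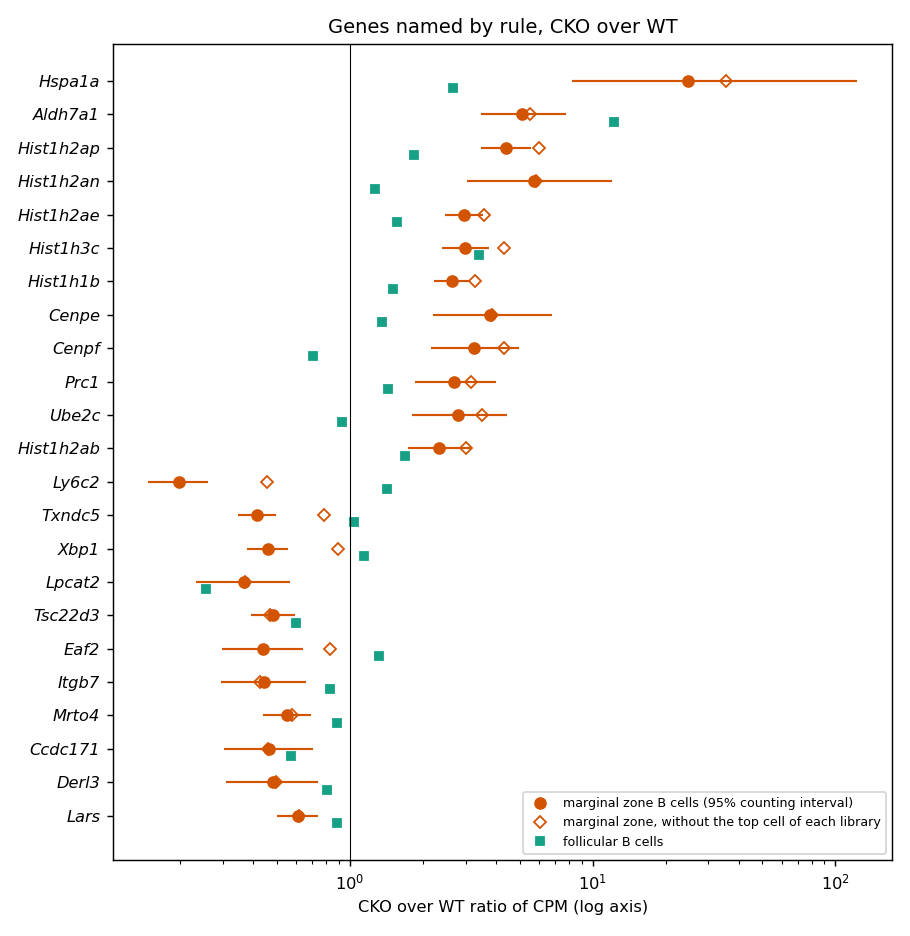
Ratio of CPM in CKO over WT (log axis) for 23 of the 24 named genes, with orange circles and 95% counting intervals for marginal zone B cells, open diamonds for the same without the cell with most UMIs of the gene in each library, and green squares for follicular B cells. Prg2, with no count in CKO members, is not drawn, and the diamonds of Ly6c2, Xbp1, Txndc5 and Eaf2 lie nearer to 1 than their circles.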

How the data were processed

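Per the labels, libraries were made with the 10x Genomics 3′ v3.1 chemistry. The deposited matrices hold UMI counts per gene and barcode for 32285 genes, not normalized by the authors. The submitters' processing notes name Cell Ranger 5.0.0, Seurat 4.0.3 and build mm10, while per the file headers Cell Ranger 6.0.2 wrote the matrices. The barcodes were those deposited, and the gate set out in the report was applied to them. Counts were summed over the gated cells of a library and divided by all their UMIs (CPM). Intervals were exact Poisson for levels, Clopper-Pearson for shares and conditional binomial for ratios. PCR duplicates are removed by UMIs, and counting intervals leave out variation between animals. Calls needed at least 20 CPM and 20 counts in a set and a 1.5-fold ratio. Doublets were not removed, and leaving out the top 10% of Scrublet scores was one alternative. Named genes are the 12 higher and 12 lower genes (CKO over WT) and 15 and 15 (marginal zone over follicular) whose interval lies farthest from 1. That naming passed over antigen receptor segments, ribosomal protein, mitochondrial, sex-linked and uncharacterized genes, and genes under 5% of their level in gated T, NK or myeloid cells. An item or more that these rules name is not reported here. Members of the pathway and marker lists were named too. Genes outside these rules (Mbnl1, Mki67, Ifit3, Rtp4 and those of the other observations, for example) were chosen after their values were seen. The members and the 33 lists were chosen with earlier results of these data known. Promoter windows came from RefSeq tables. The work used scanpy 1.11.5, scipy 1.17.1 and pandas 2.3.3 under Python 3.11.15, and the ratio code was tested on simulated data.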

Additional observations from a re-analysis of the deposited data

How the results depend on the processing

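The ratio of the share of marginal zone B cells among B cells lay between 0.881 and 0.938 under all alternatives that could change it. Genes at least 1.5-fold higher in CKO members numbered 222 under the stricter cell filter (500 to 4000 genes, under 5% mitochondrial UMIs), 168 with at least 3 of the 7 genes, 206 under the gate on cells thinned to 2000 UMIs, 184 with CPM over genes other than immunoglobulin, ribosomal protein and mitochondrial genes, 54 with 5 CPM added, 43 with at least 100 counts and 425 at 5 CPM or more, against 89. Lower genes numbered 116, 141, 176, 44, 25 and 298 under the last 6 of these, against 74. The genes tested numbered 5863 under the stricter filter, 5805 with at least 3 of the 7 genes and 5808 under the thinned gate. They numbered 7266 with CPM over other genes, 5789 with 5 CPM added, 4313 with at least 100 counts and 8839 at 5 CPM or more. The main setting tested 5789. For marginal zone over follicular, CPM over other genes gave 571 higher genes of 7470 tested. The filter at 5 CPM gave 687 higher and 560 lower of 9225 tested, against 339 and 368 of 6092. The cause was not tested. With at least 3 of the 7 genes, Ly6c2 (3.20), Xbp1 (1.12), Eaf2 (1.11) and Derl3 (1.25) turned to higher in CKO. Under the thinned gate, Ly6c2 (4.29), Txndc5 (1.30), Xbp1 (1.08) and Derl3 (1.17) did. Without the 3 WT cells of at least 20 Jchain UMIs, Ly6c2 (1.49), Xbp1 (1.02) and Eaf2 (1.03) did. The median log2 ratio of plasma cell markers, -1.12, became 0.32, 0.14 and 0.22 under these settings in turn. Without cycling cells Hist1h2ae (0.989), Hist1h1b (0.873) and Cenpe (0.970) turned to lower, and Cenpf and Ube2c had no count left in a library and give no value. Leaving out cycling cells, Jchain-rich cells or the top cell was chosen after seeing the data, as were the gates without the Fcer2a or the Bhlhe41 step. Of 1012 gene ratios over the 13 settings, 861 kept their direction and stayed close, 137 moved in size and 14 reversed. No paired analysis was possible because each genotype had 1 library. At the depth of the members, 1 count equals 0.300 CPM in CKO and 0.347 CPM in WT.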

Other observations

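Transitional B cell markers were lower in the members for 3 of 6 measured genes in both libraries and higher for none. Over all genes 5.56% were higher and 6.04% lower than in follicular B cells, which is the background for each count of this paragraph. Vpreb3, a surrogate light chain gene of immature B cells, had 220 CPM in CKO and 182 CPM in WT members, against 491 CPM in CKO and 449 CPM in WT follicular B cells. Among B cell transcription factors, 6 of 40 measured were higher and 10 lower than in follicular B cells of both libraries, against 5.56% and 6.04% of all genes. Myc, a driver of growth, had 116 CPM in CKO and 143 CPM in WT members, against 40.8 CPM in CKO and 57.4 CPM in WT follicular B cells. Tcf4, an E protein, had 456 CPM in CKO and 386 CPM in WT members, against 227 CPM in CKO and 196 CPM in WT follicular B cells. Id3, an inhibitor of E proteins, had 80.7 CPM in CKO and 84.2 CPM in WT members, against 203 CPM in CKO and 198 CPM in WT follicular B cells. Mef2c had 758 CPM in CKO and 711 CPM in WT members, against 1463 CPM in CKO and 1403 CPM in WT follicular B cells. Of 24 measured immediate early genes 6 were lower and 1, Myc, was higher in both libraries.

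The barcodes kept out only by a Bhlhe41 UMI, a transcription factor of B-1 cells, had levels of some markers near those of the members, at median depths of 8878 UMIs in CKO and 9713.5 UMIs in WT. Fcrl5 had 109 CPM in CKO and 121 CPM in WT barcodes of that kind, and Plac8 had 2262 CPM in CKO and 2305 CPM in WT ones. Asb2 had 10.6 CPM in CKO and 17.5 CPM in WT of them, and Tspan15 had 2.83 CPM in CKO and 1.94 CPM in WT of them, below the member levels of 20.7 CPM in CKO and 18.4 CPM in WT.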
